A study of Potamopyrgus antipodarum with 6 samples.

Results

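The long stretches that mix dense and sparse windows were runs of 100 bp windows in the MeDIP-Seq count table of snail foot DNA. Covered stretches were runs of windows with 8 or more windows of no count in any pool between them. A long mixed stretch had 10 or more windows, a mean of 240 or fewer counts per window summed over the 6 pools, at least 3 dense windows with over 240 summed counts and at least 3 sparse windows with 30 or fewer. The rule took 56 of 43878 covered stretches, and 3108 of these stretches had 10 or more windows. The stretches were chosen by the counts summed over the 6 pools, which also make their windows dense or sparse, so the contrast between dense and sparse windows is given as a description. The comparison of the river with the lake was not part of the rule.

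The river pools (numbered 10, 11 and 12) were snails of a Snake River side channel, at Ritter Island, and the lake pools (numbered 1, 2 and 3) were snails of Lake Lytle. Each pool held foot tissue DNA of 10 New Zealand mud snails, Potamopyrgus antipodarum, according to its labels, and the methods of the study add further snails where the yield of DNA was low. All snails were of an asexual invasive species and were kept at 14 °C for several days before dissection. DNA was sonicated with a program for 300 bp fragments, precipitated with an antibody against 5-methylcytosine and sequenced. With 1 river site and 1 lake site the kind of habitat and the locality cannot be told apart.

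Methylated DNA immunoprecipitation (MeDIP) pulls down fragments that carry methylated cytosines. The count of a window is the number of mapped reads that the authors' processing counted in it, which need not be all reads sequenced from it. In molluscs, as in many invertebrates, DNA methylation is mosaic: heavily methylated tracts, mostly within the bodies of active genes, alternate with tracts that carry little methylation. A MeDIP count also depends on the number of CpG sites, on copy number and on how well reads map, so it gives no level of methylation.

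Reads of genomic DNA had been mapped by the authors to a transcriptome reference, so neighbouring windows of a stretch are neighbours on a transcript contig and need not be neighbours in the genome. Whether a boundary falls at the end of an exon was not tested. Positions are given in bp along all contigs joined into 1 sequence, counted from 1, and the build of the reference is not given in the sources used here. Contig limits were not used here, so the first and the last window of a stretch may reach past the end of a contig, and a fall in count there cannot be told apart from the end of the contig.

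The pools differed in depth. The total count over all windows was 2721381, 2212650 and 4175301 in river pools 10, 11 and 12 and 4040377, 4435396 and 5013750 in lake pools 1, 2 and 3. The mixed stretches held between 0.484% and 0.545% of the counts of a pool. Lake pools 2 and 3 differed by less than sampling noise, with a chi-square of 0.805 per window over the whole table, and were counted as 1 sample in each mean ± SD, so that n is 2 for the lake. Lake pool 1 differed from lake pools 2 and 3 by 1.08 and 1.20 over the whole table and was kept apart, although within the mixed stretches alone its values were 1.01 and 0.906, against 0.737 between lake pools 2 and 3. River pool 12, the deepest river pool, stood nearer to the lake pools than to the other river pools: its chi-square per window in the mixed stretches was 2.50 and 3.32 against river pools 10 and 11, and between 1.43 and 2.29 against the lake pools. Values without it stand beside the results that it moves.

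The 56 stretches covered 735 windows, or 73500 bp. They had 10 to 30 windows with a median of 12, and 10 of them had exactly 10. Of their windows, 208 were dense, 302 were sparse and 225 were intermediate, with 31 to 239 summed counts. The median summed count was 387 in dense windows and 8 in sparse windows, and the highest was 1416. Many stretches lay close to the limits of the rule: 33 had exactly 3 dense windows and 16 had exactly 3 sparse windows. The highest mean inside the rule was 238.2 counts per window, in the stretch at 26550701 to 26551700, and the lowest mean just outside it was 249.8, in the stretch at 12617801 to 12618800. Among stretches that met the rest of the rule, 65 had a mean above the limit, 94 had 2 dense windows, 26 had 2 sparse windows and 13 had 9 windows.

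**Figure D1:**
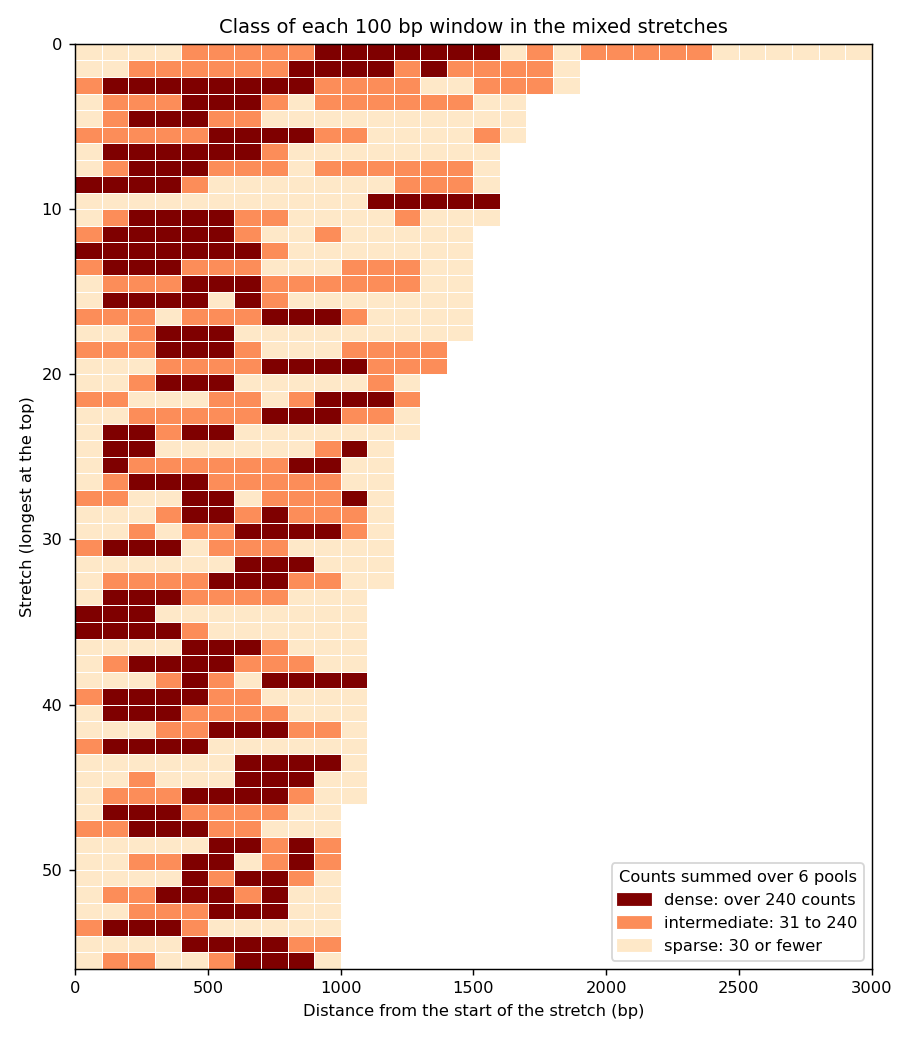
Each row is 1 of the 56 mixed stretches, longest at the top, and each block is a 100 bp window placed by its distance from the start of the stretch in bp, coloured by its count summed over the 6 pools. The dense windows sit in 1 run in 44 stretches and in 2 runs in 12 stretches, mostly with sparse windows on both sides.

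Dense windows formed compact blocks inside the stretches. They sat in a single run in 44 stretches and in 2 runs in 12 stretches, and at most 8 windows of a stretch were dense, against at most 12 that were sparse. Sparse windows lay on both sides of the dense windows in 35 stretches, only before them in 7 and only after them in 14. In 5 stretches at least 1 sparse window lay between dense runs. The ends of the stretches were mostly sparse: 87 of the 112 first and last windows were sparse and 6 were dense. A run of 3 or more sparse windows was present in 38 stretches. The rule asked for at least 3 sparse windows, so it required sparse windows away from the ends in every stretch. With the first and the last window left out of the sparse count, 33 of the 56 stretches still met the rule.

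The longest stretch, at 2154001 to 2157000, had 30 windows, of which 7 were dense and 12 were sparse, and its dense windows formed 1 run that ended beside a sparse window. Its highest window, at 2155101, had 189, 175 and 239 counts in the river pools and 258, 274 and 281 in the lake pools. The sparse window at 2155601, next to the run of dense windows, had 2, 1 and 4 counts in the river pools and 7, 2 and 10 in the lake pools. The drop over a few windows was present in every pool of both sites. The sums over the pools that made these windows dense or sparse left little room for another outcome. The next longest stretches, at 4432901 to 4434800 and at 4847801 to 4849700, had 19 windows each. The first of these had 5 dense and 3 sparse windows, and the second had 8 dense and 3 sparse windows.

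The share of windows that were dense was highest in the stretch at 5845501 to 5847000, with 7 dense windows, 7 sparse windows and 1 window between the blocks. In this stretch 97.5%, 98.2% and 97.3% of the counts of the river pools fell in the dense block, and 94.7%, 96.8% and 95.3% of those of the lake pools. The river pools were all above the lake pools here. The share was lowest in 2 stretches with 3 dense windows in 17 each, at 83901 to 85600 and at 246601 to 248300. In the first the dense windows held 63.8%, 78.0% and 67.0% of the counts of the river pools and 60.3%, 59.2% and 52.7% of those of the lake pools, without overlap. In the second they held 75.8%, 73.8% and 77.7% of the counts of the river pools and 78.0%, 71.0% and 77.7% of those of the lake pools, and the sites overlapped.

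A boundary was defined as a dense window and the nearest sparse window on either side of it, with no other dense or sparse window between them. The mixed stretches held 101 boundaries, 54 with the sparse window after the dense one and 47 with it before. In 39 boundaries the windows were adjacent, so that the change took place within 200 bp, and in 28 more a single intermediate window lay between. The remaining 34 were gradual, with 2 to 6 windows between. The 39 adjacent pairs had a median ratio of 34.8 between the summed counts of the dense and the sparse window. Adjacent pairs made up 38.6% of the boundaries here and 33.6% of the 912 boundaries in other stretches of 10 or more windows. The sparse window was the first or last of its stretch in 28 boundaries, or 27.7%, against 56.6% in the other long stretches. Some adjacent pairs were among these 28, such as that of the dense window at 841601, and may lie at the end of a contig. The ratio of 34.8 was not split by this.

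The position of a boundary was measured in each pool from that pool's own counts. The plateau was the mean count of up to 3 adjoining dense windows, and the edge position was the point, by linear interpolation between window centres, at which the count first fell under 0.5 of the plateau. It is given in bp from the centre of the last dense window, positive towards the sparse side. The edge was sought only from the highest window of the plateau to the sparse window, which limits how far it can move. A shift is the edge position in the river minus that in the lake, so that a negative shift means a dense block that reached farther out in the lake.

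**Figure D2:**
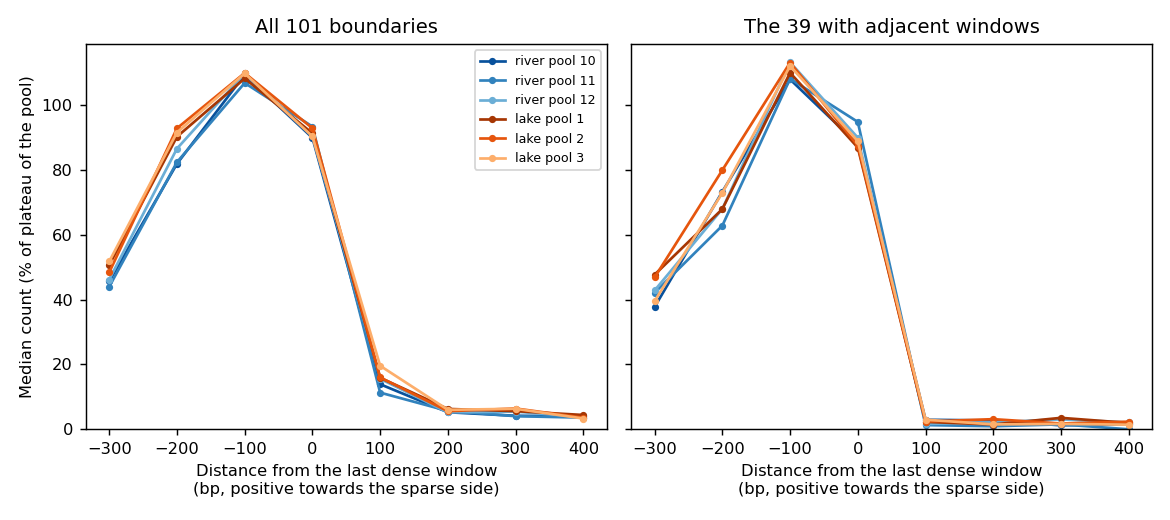
The median count, as a percentage of the plateau of the same pool, is drawn against the distance in bp from the last dense window, with the sparse side to the right, for all 101 boundaries and for the 39 with adjacent windows, with 1 line per pool. At 100 bp beyond the last dense window the river lines of the adjacent pairs lie at 2.94%, 1.30% and 1.64% of the plateau and the lake lines at 2.29%, 2.39% and 2.97%.

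The fall from plateau to floor had nearly the same shape in the 6 pools. Over all 101 boundaries the last dense window held a median of 90.0%, 93.4% and 90.7% of the plateau in river pools 10, 11 and 12 and 91.4%, 92.9% and 90.4% in lake pools 1, 2 and 3. The window 100 bp farther out held 13.9%, 11.3% and 15.6% in the river pools and 15.9%, 16.0% and 19.6% in the lake pools. The lake pools were all above the river pools at that distance, with river pool 12 next to lake pool 1. For the 39 adjacent pairs the same window held 2.94%, 1.30% and 1.64% in the river pools and 2.29%, 2.39% and 2.97% in the lake pools, and the sites overlapped.

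Edge positions differed little between the sites in relation to the 100 bp window. The median shift over the 101 boundaries was -1.01 bp, against -1.84 bp over the 912 boundaries of other long stretches. The middle of the distribution ran from -9.54 to 4.35 bp (quartiles), and the median size of a shift was 7.69 bp, against 5.63 bp in the other long stretches. The shift was negative in 59 boundaries and positive in 42. The spread within sites was of the same order, with a median SD of 7.73 bp over the river pools and 5.51 bp over the lake pools.

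No boundary of the mixed stretches was called as shifted. The limma moderated test (two-sided, Benjamini-Hochberg adjustment over the 1013 boundaries tested, threshold 0.05) called 0 of 101, against 0.197% of all boundaries, and the lowest adjusted p was 0.0602. At an unadjusted p under 0.05 there were 22 boundaries, or 21.8%, against 15.3% of all boundaries tested. Without river pool 12 the test called 1 boundary. The test had a median standard error of 5.52 bp, and the 95% interval of the shift lay within 50 bp on either side of 0 in 75 boundaries and within 20 bp in 48. In these 75 boundaries a shift by a whole window of 100 bp lay outside the interval, and in the rest the interval reached past 50 bp. At adjacent pairs the search for the edge ended at the next window, which limits outward shifts there.

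In 20 boundaries (19.8%) every lake pool had the edge farther out than every river pool, against 17.3% of all boundaries tested. In 6 boundaries (5.94%) every river pool had it farther out, against 4.74% of all boundaries. In either direction the pools of the sites did not overlap in 22.0% of all boundaries tested. The mixed stretches were near this background in both directions.

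**Figure D3:**
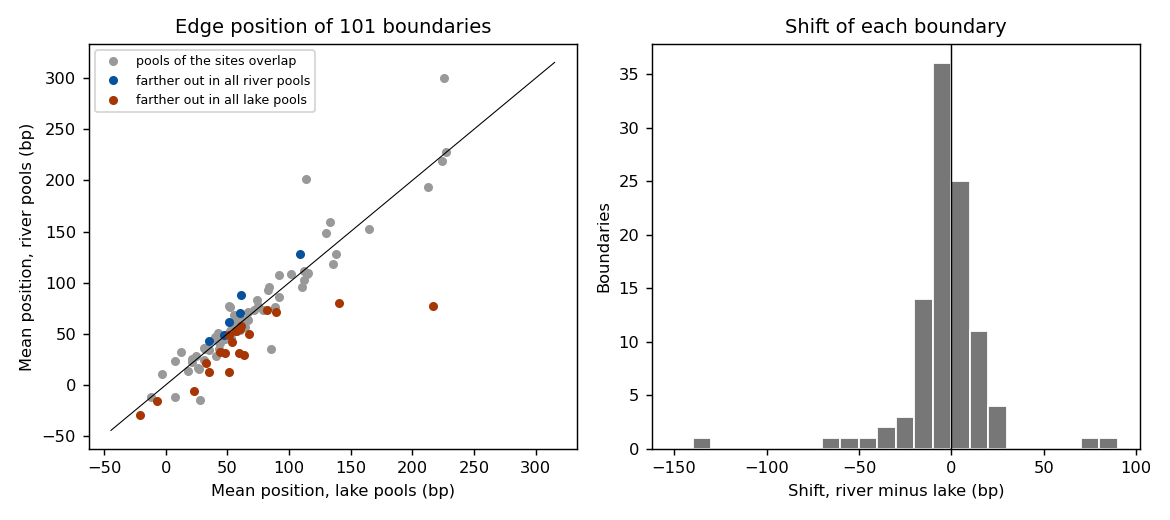
Left, the mean edge position in the river pools against that in the lake pools for the 101 boundaries, in bp from the centre of the last dense window, with the line of equal positions. Right, the number of boundaries by their shift (river minus lake, in bp), with a median of -1.01 bp and 5 boundaries beyond 50 bp in size.

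Edge positions differed less between the sites, and also within them, at sharp boundaries than at gradual ones. The 39 adjacent pairs had a median shift size of 4.32 bp, and the 67 boundaries with at most 1 window between had 5.78 bp and a largest shift of 42.7 bp in size. The 34 gradual boundaries had a median shift size of 15.9 bp. The median SD within a site was 3.62 bp over the river pools and 2.12 bp over the lake pools at the adjacent pairs, and 19.4 bp over the river pools and 11.9 bp over the lake pools at the gradual boundaries. All 5 boundaries with a shift beyond 50 bp were gradual. No test was made of this difference, since the number of windows between comes from the counts that chose the stretches. Adjacent pairs also left the edge the least room to move, so part of the difference may come from the measure. Where the plateau was 1 dense window, the edge of an adjacent pair lay near 50 bp by construction. At the dense window at 2682101 it lay at 50.0 to 50.7 bp in the 6 pools.

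The boundary with the lowest p lay in the stretch at 5506401 to 5507400, between the dense window at 5506501 and the sparse window at 5506401. Its edge lay at 11.5, 12.1 and 14.8 bp in river pools 10, 11 and 12 and at 37.6, 35.4 and 32.0 bp in lake pools 1, 2 and 3. The sites did not overlap, and the shift was -22.2 ± 2.17 bp (SE), with a limma adjusted p of 0.0602, which misses the threshold. The sparse window here was the first of the stretch and held 3 counts in all. A region listed by the study starts inside the dense window at 5506501 and not at a window border. This edge may thus be the end of a contig, which was not tested. The boundary at the other side of the same dense block was farther out in the river, at 141, 123 and 120 bp in the river pools and 117, 102 and 109 bp in the lake pools, with a shift of 18.8 ± 7.04 bp (SE, adjusted p = 0.321).

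The second boundary farther out in the lake lay between the dense window at 28867301 and the sparse window at 28866901, with 3 windows between. Its edge lay at 38.9, 25.0 and 31.1 bp in the river pools and 58.8, 60.8 and 59.2 bp in the lake pools. The shift was -27.9 ± 3.91 bp (SE, limma adjusted p = 0.107). At 0.25 of the plateau in place of 0.5 it was -150.6 bp, with an adjusted p of 0.465.

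Of the boundaries farther out in the river, the lowest p belonged to the one between the dense window at 32334701 and the sparse window at 32334501. Its edge lay at 62.2, 63.7 and 60.2 bp in the river pools and 49.8, 51.1 and 53.4 bp in the lake pools, a shift of 10.6 ± 1.87 bp (SE, limma adjusted p = 0.166). The next was the adjacent pair of the dense window at 29702201 and the sparse window at 29702301. Its edge lay at 41.4, 46.2 and 41.2 bp in the river pools and 38.7, 32.9 and 34.1 bp in the lake pools, a shift of 7.69 ± 2.54 bp (SE, adjusted p = 0.298). The sites did not overlap at either boundary, and neither shift passed the threshold.

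Of the 5 boundaries with a shift beyond 50 bp, 3 had pools of the sites that overlapped. The largest shift, -139 ± 66.4 bp (SE), was at the dense window at 17089501, where the edge lay at 65.6, 88.9 and 77.8 bp in the river pools and 114, 358 and 179 bp in the lake pools. Every lake pool was farther out, but lake pool 2 alone lay beyond 200 bp, although it and lake pool 3 were otherwise alike. At the dense window at 30683001 the edge lay at 312, 90.6 and 202 bp in the river pools and 95.6, 82.9 and 164 bp in the lake pools, so the sites overlapped. The shifts at 8412901 and 26551001, of 74.8 and -50.4 bp, also came with overlapping pools. At the dense window at 1881401 the sites did not overlap, and its edge lay at 76.7, 66.7 and 97.2 bp in the river pools and 132, 163 and 126 bp in the lake pools, a shift of -60.1 ± 13.1 bp (SE, adjusted p = 0.203).

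Taking each pool as 1 value, the median edge position over the 101 boundaries was 55.3, 52.1 and 54.7 bp in river pools 10, 11 and 12 and 55.9, 56.7 and 55.9 bp in lake pools 1, 2 and 3. The lake pools were all farther out. The river averaged 54.0 ± 1.71 bp (SD, n = 3) and the lake 56.1 ± 0.295 bp (SD, n = 2). The difference was -2.13 bp over the 6 pools (two-sided exact permutation p = 0.1, the smallest that 3 pools against 3 allow), and -2.06 bp with lake pools 2 and 3 as 1 sample (exact permutation p = 0.2). It turned to 0.0784 bp with the edge taken at 0.75 of the plateau (exact permutation p = 1). The same median in the other long stretches was 56.0, 54.5 and 57.3 bp in the river pools and 57.2, 58.7 and 58.6 bp in the lake pools, which overlapped.

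Pairs of pools from different sites differed more in edge position on average than pairs from the same site. The median difference over the 101 boundaries was 6.55 to 13.1 bp in the 9 pairs between sites, 7.27 to 8.52 bp in the 3 pairs of river pools and 4.08 to 5.82 bp in the 3 pairs of lake pools. The mean was 9.51 bp between sites and 6.50 bp within sites, a difference of 3.01 bp (one-sided exact permutation p = 0.1 over the 10 ways to split 6 pools into 3 and 3, the smallest possible). The closest pairs between sites held river pool 12, and the ranges of the pairs between sites and of the pairs of river pools overlapped.

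Most windows kept their class between sites. The counts of each site were scaled to the depth of the 6 pools together with TMM-adjusted totals, which correct the library sizes for differences in composition, and each window was classed anew in the river and in the lake. In both sites 188 windows were dense, 270 were sparse and 179 were intermediate, which made 637 of 735 windows (86.7%) with the same class, against 87.8% in the other long stretches. None of the 735 windows was dense in one site and sparse in the other, and neither was any of the 37379 windows of the other long stretches. Windows that were sparse in the river and intermediate in the lake numbered 49 (6.67%, against 7.54% in the other long stretches), and the reverse 13 (1.77%, against 2.73%), so both were near the shares elsewhere. Windows dense in both sites made up 25.6% of the windows here and 12.4% in the other long stretches, so more windows here could leave the dense class. Windows that were dense in the river and intermediate in the lake numbered 20 (2.72%, against 0.639%), and the reverse 16 (2.18%, against 1.25%). With library sizes alone these counts were 10 and 30, so their order turned with the scaling. For the sparse windows these counts were 58 and 7 with library sizes alone.

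The rule was met in the river alone by 40 of the 56 stretches and in the lake alone by 46. The stretch at 83901 to 85600 held 7 windows that were sparse in the river and intermediate in the lake. Its window at 84701, which of the sparse windows higher in the lake had the lowest p, had 2, 0 and 1 counts in the river pools and 9, 5 and 11 in the lake pools. The sites did not overlap, and the log2 fold change, river over lake, was -2.21 ± 0.73 (SE, adjusted p = 0.0852), which misses the threshold. Of the sparse windows higher in the river, that at 28867601 had the lowest p, with 7, 7 and 5 counts in the river pools and 3, 2 and 2 in the lake pools. Its log2 fold change was 2.12 ± 0.61 (SE, adjusted p = 0.0580), and without river pool 12 it passed, at 2.68 with an adjusted p of 0.000883.

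Windows were tested one by one by quasi-likelihood in edgeR (two-sided F test, Benjamini-Hochberg adjustment over 146394 windows with at least 10 summed counts, threshold 0.05). Of the 735 windows of the mixed stretches 572 could be tested: each of the 208 dense and 225 intermediate windows and 139 of the 302 sparse ones. The test called 16 windows in 8 stretches, or 2.80%, against 1.09% of all windows tested. Of these, 13 were higher in the river and 3 were higher in the lake, where the shares of all windows tested were 0.669% and 0.419%. This split depended on the scaling: 5 were higher in the river and 4 in the lake with library sizes alone, 27 and 6 with DESeq2 size factors, and 24 and 10 with offsets that follow abundance. Dense windows made up 11 of the 16 calls (5.29% of the dense windows, against 2.69% of all dense windows) and intermediate windows 5 (2.22%, against 1.17%). No sparse window was called by this test, against 0.161% of all sparse windows tested, and 12 had an unadjusted p under 0.05.

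The calls on windows depended on the replicates. With lake pools 2 and 3 summed as 1 sample the count was 0, and it was also 0 without river pool 10 or without any 1 of the 3 lake pools. It was 16 without river pool 11 and 149 without river pool 12, of which 85 were higher in the river and 64 in the lake. The DESeq2 Wald test called 31 windows.

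With TMM scaling, log2 fold changes differed in sign between dense and other windows. The median log2 fold change, river over lake, was 0.15 in the dense windows, -0.21 in the intermediate windows and -0.15 in the tested sparse windows. The medians over all windows tested of the same classes were 0.33, -0.27 and -0.12, so this order was shared with the whole table. The sign in the dense windows turned with the scaling. The median was 0.22 with DESeq2 size factors, but -0.05 with library sizes alone and -0.08 with offsets fitted along abundance, where the median over all windows tested stood at -0.04, -0.29 and -0.02, against -0.10 with TMM. The intermediate and sparse medians stayed below 0 under these scalings, at -0.15 and -0.08 with DESeq2 size factors, -0.40 and -0.31 with library sizes alone, and -0.02 and -0.01 with offsets along abundance. The pools of the sites did not overlap in 71 dense windows (34.1%, against 35.0% of all dense windows), in 81 intermediate windows (36.0%, against 28.3%) and in 27 tested sparse windows (19.4%, against 16.6%).

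The stretch at 13138501 to 13139600 had the most called windows, 5 in a row, all higher in the river. Its window with the lowest p, at 13138901, had 96, 60 and 137 counts in river pools 10, 11 and 12 and 58, 74 and 87 in lake pools 1, 2 and 3. As CPM, the counts scaled to a common library total after TMM adjustment, these were 38.8, 33.0 and 31.8 in the river and 13.9, 15.5 and 15.9 in the lake. The river pools were all above the lake pools, with a log2 fold change of 1.18 ± 0.20 (SE, edgeR adjusted p = 0.0226). The call was lost with lake pools 2 and 3 as 1 sample (adjusted p = 0.121) and without river pool 10 or any 1 of the lake pools (adjusted p between 0.0578 and 0.260). The edge before this block lay at 109, 112 and 105 bp in the river pools and 114, 113 and 78.2 bp in the lake pools (shift 6.93 ± 10.9 bp, SE), and the sites overlapped.

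Of the dense windows higher in the lake, the lowest p belonged to that at 5506501, the window whose boundary had the lowest p. It had 13, 11 and 37 counts in the river pools and 55, 65 and 77 in the lake pools, or 5.25, 6.05 and 8.58 CPM in the river and 13.2, 13.7 and 14.1 CPM in the lake. The sites did not overlap, and the log2 fold change was -0.97 ± 0.24 (SE, edgeR adjusted p = 0.0485). The call was lost without any 1 of river pools 10 and 11 and the lake pools, with adjusted p between 0.0713 and 0.263, and with lake pools 2 and 3 as 1 sample (adjusted p = 0.179).

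The shape of a stretch was tested apart from its height. The profile test asked whether counts were spread over the windows of a stretch in the same way in both sites (edgeR's test of a window by site interaction, Benjamini-Hochberg adjustment over 31171 stretches with at least 2 tested windows). Reads that crossed a window border were counted in both windows, as the totals show (in river pool 10 the counts came to 1.50 per read), and the test treats windows as separate. It called 4 of the 56 mixed stretches (7.14%), against 0.581% of all stretches tested, and 18 (32.1%) had an unadjusted p under 0.05, against 6.88%. Among stretches of 10 or more windows the share called was 6.90% where the mean was over 240 counts and 1.26% in the rest.

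These calls also depended on the pools. The count was 0 with lake pools 2 and 3 as 1 sample and 0 without river pool 10, river pool 11, lake pool 2 or lake pool 3. It was 3 without lake pool 1 and 15 without river pool 12. Offsets that remove the trend of the fold change with window count in each pool raised it to 38, where the share of all stretches called was 17.8%, and the 4 stretches were among the 38. That was 67.9% of the mixed stretches, against 97.6% of the long stretches with a mean over 240 counts and 10.3% of the other long ones.

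**Figure D4:**
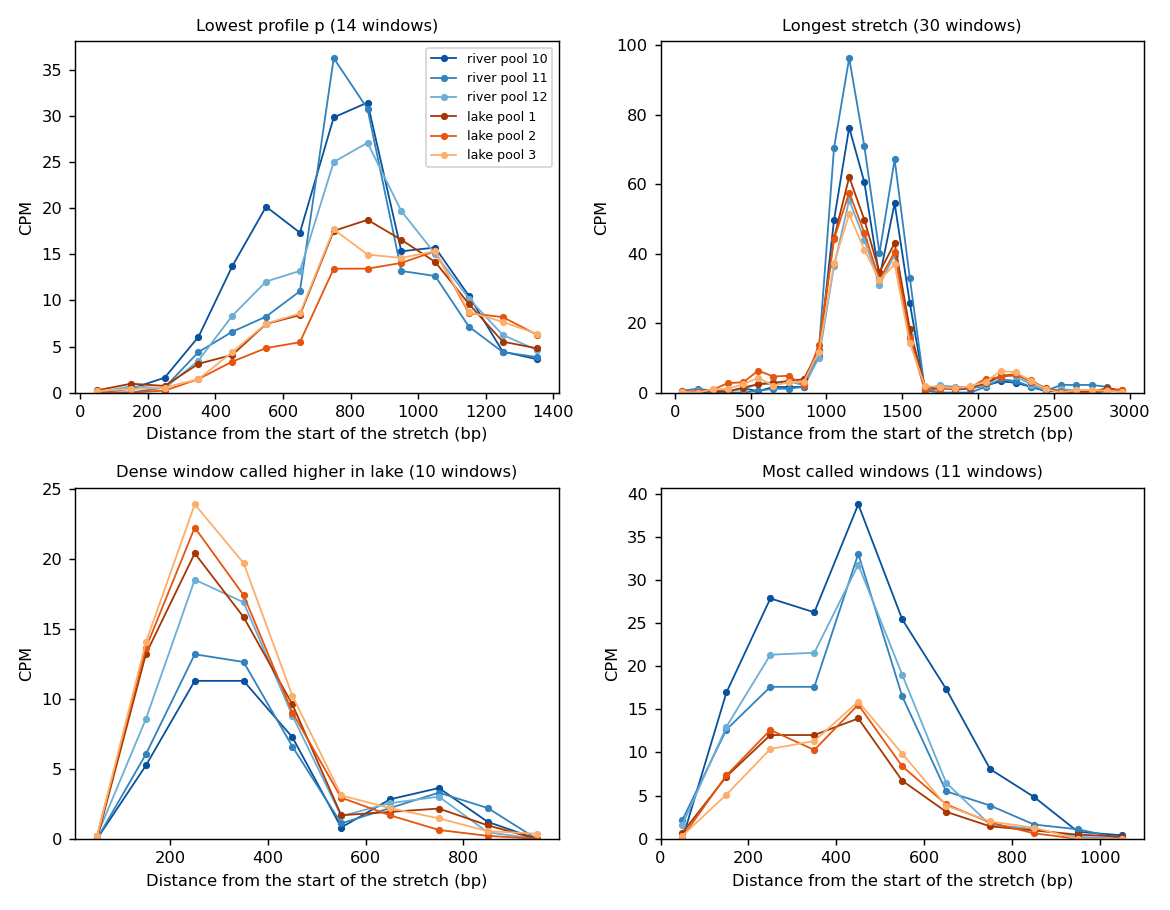
CPM per 100 bp window against the distance from the start of the stretch in bp, with 1 line per pool, for the mixed stretch with the lowest profile p, the longest one, the one with the dense window called higher in the lake and the one with the most called windows. In the last panel the 3 river lines reach 31.8 to 38.8 CPM at the highest window and the 3 lake lines 13.9 to 15.9.

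The stretch with the lowest profile p lay at 30682301 to 30683700 (adjusted p = 0.0107). Its window at 30682701 had 13.7, 6.60 and 8.35 CPM in the river pools and 4.09, 3.36 and 4.39 in the lake pools, and its dense window at 30683101 had 31.5, 30.8 and 27.1 CPM in the river pools and 18.8, 13.4 and 15.0 in the lake pools. Both were called as higher in the river, as was the dense window at 30683001, and the sites did not overlap at any of them. In the last window of the stretch, at 30683601, the order was the reverse, with 3.63, 3.85 and 4.63 CPM in the river pools and 4.81, 6.30 and 6.40 in the lake pools (log2 fold change -0.50 ± 0.30, SE, adjusted p = 0.359). The profile call was lost without river pool 10, river pool 11, lake pool 2 or lake pool 3 (adjusted p between 0.0625 and 0.601).

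In the longest stretch, at 2154001 to 2157000, the profile test gave an adjusted p of 0.0123, and no single window was called. Its highest window, at 2155101, had 76.3, 96.3 and 55.4 CPM in the river pools and 62.0, 57.6 and 51.3 in the lake pools, which overlapped. On a low shoulder beyond the block, the window at 2156301 had 1.61, 1.65 and 2.32 CPM in the river pools and 3.13, 3.57 and 3.29 in the lake pools. The sites did not overlap there, and the log2 fold change was -0.75 ± 0.39 (SE, edgeR adjusted p = 0.274). Of the windows before it on the shoulder, the sites overlapped at 2156101 (edgeR adjusted p = 0.597) and did not overlap at 2156201 (edgeR adjusted p = 0.348). River pool 12 lay among the lake pools at the highest window and below them at 2156301. The profile call was lost without river pool 10, river pool 11, lake pool 2 or lake pool 3 (adjusted p between 0.509 and 0.605).

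The stretch at 4430601 to 4432000 (profile adjusted p = 0.0182) had the same form. Its dense window at 4430901 had 47.2, 59.4 and 34.8 CPM in the river pools and 34.1, 35.7 and 32.3 in the lake pools, so that river pool 12 lay among the lake pools. Its shoulder at 4431801, beyond 3 sparse windows, had 2.83, 2.20 and 3.25 CPM in the river pools and 6.01, 5.88 and 5.66 in the lake pools, with a log2 fold change of -1.01 ± 0.33 (SE, edgeR adjusted p = 0.0799). The lake pools were all above the river pools at the shoulder. The profile call was lost without any 1 pool other than river pool 12 (adjusted p between 0.0965 and 0.509).

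The stretch at 5506401 to 5507400 (profile adjusted p = 0.0436), which held the boundary with the lowest p, was the only other call. Against its lower dense windows in the river, its window at 5507101 had 3.63, 3.30 and 3.01 CPM in the river pools and 2.16, 0.630 and 1.46 in the lake pools. The sites did not overlap there, and the log2 fold change was 1.21 ± 0.44 (SE, edgeR adjusted p = 0.113).

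The total of a stretch, tested in the same way on summed counts over 37710 stretches, was called in 0 of the 56 mixed stretches by the edgeR quasi-likelihood test, against 0.00796% of all stretches. At an unadjusted p under 0.05 there were 21 (37.5%), against 24.2% of all stretches, and the DESeq2 Wald test called 7. The pools of the sites did not overlap in 26 stretches (46.4%), against 27.3% of all stretches. Log2 fold changes ran from -0.73 to 1.11 with a median of 0.14, against a median of -0.05 over all stretches, and 37 of 56 were above 0. With library sizes alone the median was -0.05 and 24 were above 0, and with offsets along abundance it was -0.09 and 19 were above 0, against medians over all stretches of -0.22 and 0.01. Without river pool 12 the test called 27 stretches, 14 higher in the river and 13 higher in the lake.

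The lowest p for a total higher in the river was that of the stretch at 13138501 to 13139600, with 167, 112 and 118 CPM in the river pools and 58.9, 60.9 and 60.1 in the lake pools. The log2 fold change was 1.11 ± 0.19 (SE, edgeR adjusted p = 0.0862). It passed without river pool 11 (adjusted p = 0.0110) and without river pool 12 (adjusted p = 3.44e-05). The lowest p for a total higher in the lake was that of the stretch at 54704201 to 54705400, with 49.7, 59.4 and 99.5 CPM in the river pools and 111, 125 and 110 in the lake pools. Its log2 fold change was -0.73 ± 0.24 (SE, edgeR adjusted p = 0.0908), and -1.11 without river pool 12 (adjusted p = 4.33e-05). The sites did not overlap in either, although river pool 12 came near the lake pools in the second.

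Over the mixed stretches together, a larger share of the counts fell in dense windows in the river pools, but the stretches were divided. The share of the counts of the mixed stretches that fell in the 208 dense windows was 79.9%, 83.4% and 78.6% in river pools 10, 11 and 12 and 78.0%, 76.4% and 76.2% in lake pools 1, 2 and 3. The river averaged 80.7% ± 2.47 (SD, n = 3) and the lake 77.2% ± 1.21 (SD, n = 2), and the pools did not overlap. The difference was 3.79 percentage points over the 6 pools (two-sided exact permutation p = 0.1, the smallest possible) and 3.50 with lake pools 2 and 3 as 1 sample (exact permutation p = 0.2). It was 4.79 without river pool 12 and 2.41 without river pool 11. Taken one by one, 33 stretches had a higher mean share in the river and 23 in the lake. The river pools were all above the lake pools in 12 of the 56 stretches, against 22.7% of the stretches of 10 or more windows that held dense and other windows, and the lake pools were all above the river pools in 1, against 3.81%. That 1 was the stretch at 5506401 to 5507400, with 63.9%, 67.4% and 72.5% in the river pools and 75.2%, 78.4% and 76.1% in the lake pools.

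Depth moved with this share. The shallowest pool, river pool 11, had the highest share and the deepest pool, lake pool 3, the lowest. Thinning the pools at random to the depth of the shallowest left the difference at 3.80 percentage points. Random thinning keeps the expected share of each pool, so it cannot show the part of depth in the difference. No count in the table was above 300 in any pool, and the highest count in the mixed stretches was 189, 175 and 239 in the river pools and 258, 274 and 281 in the lake pools. Whether repeated reads were removed is not given in the sources used here, and the part of depth in the difference was not tested. In the other long stretches the dense windows held 80.0%, 83.6% and 71.6% of the counts of the river pools and 72.3%, 68.8% and 66.7% of those of the lake pools, and river pool 12 lay below lake pool 1.

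**Figure D5:**
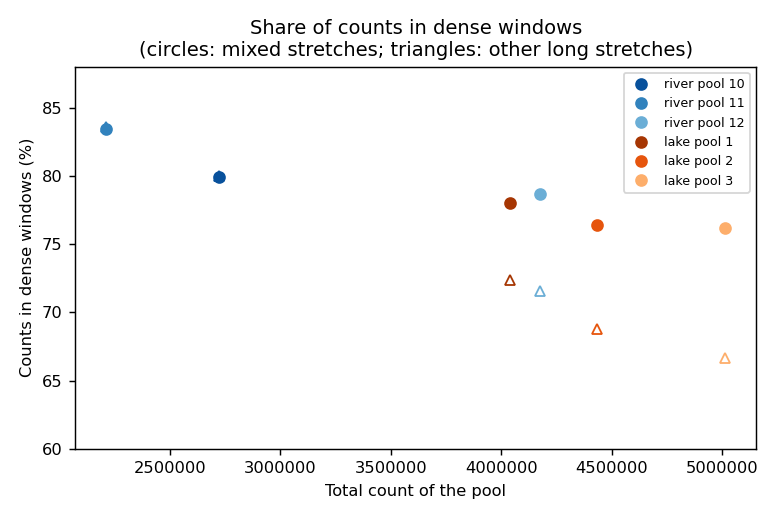
The share of counts in dense windows, in percent, against the total count of the pool, with circles for the mixed stretches and triangles for the other long stretches, 1 of each per pool, where the triangles of river pools 10 and 11 lie under their circles. The circles of the river pools lie between 78.6% and 83.4% and those of the lake pools between 76.2% and 78.0%.

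The contrast between the classes, which the rule set on the summed counts, was high in every pool. The mean count per dense window was 43.5, 51.3 and 43.3 times the mean count per sparse window in the river pools and 42.2, 39.9 and 38.5 times in the lake pools. Of the 302 sparse windows, 119, 165 and 92 had no count in the river pools and 106, 114 and 97 in the lake pools. River pool 11, the shallowest, had the most empty windows, and river pool 12 the fewest.

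Gene names were at hand for 2 of the stretches. The annotation covers only some regions, named by similarity to sequences of other species, so the other stretches carry no name here. The stretch at 461301 to 463000 was named opn1sw and arf5, which in vertebrates are a short-wave cone opsin and a small GTPase of vesicle transport. Its 17 windows held 68.2, 76.5 and 91.3 CPM in the river pools and 96.6, 105 and 113 CPM in the lake pools, with a log2 fold change of -0.44 ± 0.19 (SE, edgeR adjusted p = 0.168). The stretch at 841501 to 842600 was named LOC101061694 and TUBB4B, the second of which is a beta-tubulin, a building block of microtubules. Its 11 windows held 37.5, 47.9 and 56.3 CPM in the river pools and 67.1, 87.8 and 67.1 CPM in the lake pools, with a log2 fold change of -0.66 ± 0.22 (SE, adjusted p = 0.0941). The lake pools were all above the river pools in both stretches, and neither total passed the threshold.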

How the data were processed

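The authors mapped reads with Bowtie2 to a transcriptome reference, converted them with SAMtools and used the MEDIPS package to count them per 100 bp window, and tool versions are not given in the sources used here. Each deposited count is per window and pool and is not normalised. The deposited RPKM equals the count times 1 constant per pool and gave the reads behind each pool. The deposited mean counts per site, a signal column pair, were checked only. The authors' own log2 fold change, log2 CPM, p-value and adjusted p-value of lake against river were not used. No per-sample column (0) was left unmatched to a pool.

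Counts of all 6 pools were fitted with edgeR 4.0.16 (TMM scaling, robust quasi-likelihood in the default mode of this version, no covariate, at least 10 summed counts) with limma 3.58.1 and DESeq2 1.42.0 in R 4.3.3, on the whole table, for windows, stretch totals and profiles (diffSpliceDGE). Edge positions were tested with limma over all 1013 boundaries in stretches of 10 or more windows. Comparisons of 1 value per pool used two-sided exact permutation tests. Pools were separate pools of snails, and p-values cover the spread between them. The tests were tested on simulated data: of 200 features changed by a log2 fold change of 2, 74.0% were recovered for profiles and 97.5% for totals. False calls numbered 6 for profiles and 11 for totals. The simulated windows were independent, and the change was larger than that of any total of a mixed stretch. These shares thus do not give the power of the tests in the mixed stretches. Members and lists were chosen with earlier results of these data known. Stretches, windows and boundaries were named by length, dense share, lowest p in each direction and most called windows. The 5 boundaries beyond 50 bp, the fourth stretch called by profile and the 2 with gene names were added after their values were seen. The single windows given for the stretches called by profile were also picked after their values were seen.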

Additional observations from a re-analysis of the deposited data

How the results depend on the processing

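The count of windows called in the mixed stretches, 16 in the main test, was 33 with DESeq2 size factors, 9 with library sizes alone, 34 with abundance-trended offsets, 45 with no filter on low counts, 31 with the DESeq2 Wald test, and 0 with a minimum of 60 counts, with lake pools 2 and 3 merged and with bias-adjusted quasi-likelihood, the last chosen after seeing the data. Leaving out 1 pool gave 0 to 149. The count of stretches called by profile, 4, was 38 with abundance-trended offsets, 0 with lake pools 2 and 3 merged and 0 to 15 without 1 pool. The count called by total, 0, was 1 with abundance-trended offsets, 5 with no filter, 7 with the DESeq2 Wald test and 0 to 27 without 1 pool. The count of boundaries called, 0, stayed at 0 at both other heights, with thinned pools, with end windows left out and with lake pools 2 and 3 merged, and was 0 to 1 without 1 pool. The difference in median edge position, -2.13 bp, reversed to 0.0784 bp at a height of 0.75 and was -2.76 to -1.16 bp without 1 pool. The difference in dense share was 2.41 to 4.79 percentage points without 1 pool. The number of mixed stretches was 55 with a gap of 5 empty windows, 2618 with a gap of 10, which joins stretches with up to 9 empty windows between them, and 33 with end windows left out of the sparse count. Causes of these changes were not tested. No paired analysis was possible because river and lake pools carry different numbers. Edge positions rest on 100 bp windows, and sparse windows on few counts, so depth limits both.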

Other observations

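The mixed stretches lay between 83901 and 54705400 on the joined sequence of 73950900 bp, and 96.4% of them started before its midpoint, against 96.5% of the stretches of 10 or more windows. Within a mixed stretch, the order of the windows by count was alike in all pairs of pools: the median Spearman correlation over windows of a stretch was 0.912 to 0.944 in pairs of a river and a lake pool, 0.911 to 0.931 in pairs of river pools and 0.951 to 0.958 in pairs of lake pools. The rule chose stretches with both dense and sparse windows by the summed counts, which by itself raises these correlations. Windows of a stretch share reads and are not independent, and no test was made of these values.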
